A study of Mus musculus with 6 samples.

Results

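The interleukin-1 (IL-1) family was followed in the lungs of endotoxaemic mice through 10 genes. They were the ligands Il1a, Il1b, Il18 and Il33, the receptor chains Il1r1, Il1rap and Il1rl1, the receptor antagonist Il1rn, the decoy receptor Il1r2 and the IL-18 binding protein Il18bp. The genes were chosen by name, as ligands, receptors and decoys of the IL-1, IL-18 and IL-33 branches, and the rule used no measured value. They held 19 probes on the array, and the brightest probe stood for its gene. All 10 were among the 16370 genes that passed the filter on dim probes, of 22815 genes matched to a probe.

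Mice of the C57BL6 strain, all male and 10 weeks old, were injected with LPS (20 mg·kg−1, i.p.) after 16 h without food. At 3 and 24 h after LPS, 3 mice received saline and 3 received recombinant human thrombomodulin (rhTM), a soluble form of the endothelial receptor that turns thrombin towards activation of protein C. Total lung RNA was taken at 30 h and hybridised in 1 colour, with 1 Agilent SurePrint G3 array for each mouse. LPS and starvation were common to both groups and no unchallenged mouse was analysed here, so every value below compares rhTM with saline after LPS.

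The deposit holds both the scanner output and a table of the same signals, but these disagree on 2 mice: what the scanner output assigns to saline replicate 1, the table lists as rhTM replicate 2, and the other way round. The sources used here do not settle which is right, so the scanner output is given first and the table's assignment beside it. Between 36002 and 40503 of 56605 probes were well above background on each array. By the scanner output, saline replicate 1 and rhTM replicate 3 lay on slide 2 and the other arrays on slide 1, and each slide had its own scan day. By the table, both arrays of slide 2 were rhTM lungs (replicates 2 and 3). RNA spike-ins on saline replicate 1 had a slope of 0.826, against 1.07 to 1.09 on the other arrays. Lung markers (surfactant proteins, Scgb1a1, Ager and others) were measured for 10 of 10 genes, with summed signals of 1969 to 2551 in saline and 1957 to 2429 in rhTM lungs. By the table these sums were 1957 to 2056 in saline and 2030, 2551 and 2429 in rhTM lungs (replicates 1, 2 and 3). Signals are given as multiples of the 75th percentile of the array and are compared between arrays only, since probes of different genes are not equally bright for the same amount of RNA.

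In this family, IL-1α and IL-1β bind the receptor IL-1R1, which then recruits the accessory chain encoded by Il1rap and signals through MyD88 and IRAK kinases to NF-κB. The pathway is held back at several steps: the antagonist encoded by Il1rn occupies IL-1R1 without signalling, and IL-1R2 binds IL-1 but lacks the signalling domain. IL-18 is neutralised by IL-18 binding protein, and IL-33, an alarmin stored in the nucleus of lung epithelial cells, acts through ST2 (Il1rl1) paired with the same accessory chain. IL-1β and IL-18 are made as inactive precursors that caspase-1 cleaves, a step that an mRNA array does not see.

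The starts of Il1a, Il1b and Il33 are shown because these ligand genes carry a TATA box word close to their transcription start, the type of start found at many inducible genes. The sequences are the 80 bases before the start on the strand of the gene, from RefSeq (GRCm38.p6), with the word TATAAA in capitals. It lies 32, 31 and 29 bases before the start of Il1a, Il1b and Il33, and the Il33 window is that of 1 of its annotated starts.
Il1a, chr2:129309973-129310052, minus strand: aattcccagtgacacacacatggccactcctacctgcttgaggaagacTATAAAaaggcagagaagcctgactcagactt
Il1b, chr2:129371140-129371219, minus strand: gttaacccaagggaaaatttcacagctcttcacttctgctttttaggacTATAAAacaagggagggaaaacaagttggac
Il33, chr19:29945710-29945789, plus strand: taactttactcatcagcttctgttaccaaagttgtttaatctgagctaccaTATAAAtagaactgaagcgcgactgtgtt
TATAAA on the gene strand 20 to 40 bases before the start was present in 3 of 15 windows of the 10 genes and in 1.99% of 32851 mouse promoter windows. On either strand of the full 250 bases before the start, TATAAA was found for Il1a, Il1b, Il18 and Il33 (12.4% of all windows). The AP-1 word TGANTCA was found for Il1a and Il1rn (6.75% of all windows), and a word of the NF-κB site in 0 of the 15 windows (0.356% of all windows). A match is a description of these letters and not evidence of binding.

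Across the family, no gene differed between rhTM and saline lungs after adjustment. Of the 10 genes, 0 passed an adjusted p of 0.05 in limma, where the share over all genes was 0%, and 0 had an unadjusted p under 0.05, against 1.87% (306) of all genes. The mean of the log2 values was higher with rhTM for 9 of 10 genes (8 by the mean of linear signals, where Il1rl1 was lower), whereas 50.7% of all genes were higher, and the median difference of the 10 genes was 0.12 on the log2 scale (0.0026 over all genes). By the table's assignment, 7 of 10 were higher (6 by the mean of linear signals, 46% of all genes by log2), the median was 0.07 (−0.02 over all genes), and 0 passed the adjusted p, which was also 0% of all genes. The mice were separate animals but only 3 in each group, so the exact permutation test on a single gene cannot go below 0.10.

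**Figure D1:**
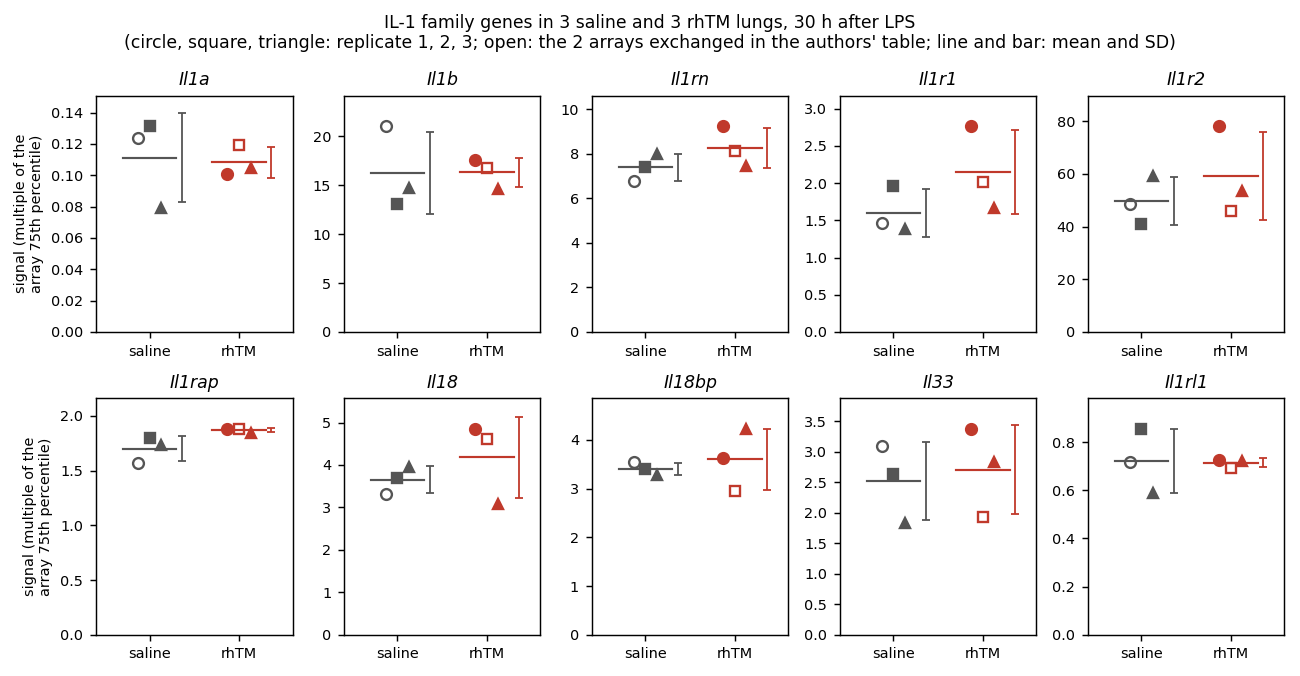
Signal of each of the 10 genes on the 6 arrays, as a multiple of the 75th percentile of the array (linear axis from 0), for 3 saline (grey) and 3 rhTM (red) lungs. Circles, squares and triangles are replicates 1, 2 and 3, open symbols are the 2 arrays that the table exchanges, and lines with bars are the mean and SD. The groups overlap for every gene but Il1rap, and rhTM replicate 1 is the highest array for 6 of the 10 genes.

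The IL-1 ligands were close to equal in the 2 groups. Il1b, the main secreted IL-1 of activated myeloid cells, had signals of 21.0, 13.0 and 14.7 in the saline lungs and 17.6, 16.7 and 14.6 in the rhTM lungs (replicates 1, 2 and 3). The highest value and the lowest value were both saline arrays, and all rhTM lungs lay between them. The means were 16.3 ± 1.5 with rhTM and 16.2 ± 4.21 with saline (SD, n = 3), a log2 difference of 0.03 (SE 0.20, 95% interval −0.44 to 0.51, exact permutation p = 1). Il1a, the IL-1 that is active as a precursor and is released from dying cells, had signals of 0.124, 0.131 and 0.0790 in saline and 0.10, 0.12 and 0.105 in rhTM lungs. All rhTM values lay within the saline range, and the log2 difference was −0.0094 (SE 0.21, 95% interval −0.52 to 0.50, exact permutation p = 1). By the table, the array with the highest Il1b signal moved to the rhTM group, and the Il1b difference was 0.25 (limma adjusted p = 0.509). Il1a then differed by 0.02.

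The inhibitors of IL-1 had somewhat higher means with rhTM, within the spread between mice. Il1rn, the receptor antagonist, measured 6.79, 7.42 and 8.0 in saline and 9.24, 8.15 and 7.46 in rhTM lungs. Of the rhTM arrays, 2 were above the highest saline array and the other lay among them. The means were 8.28 ± 0.897 and 7.40 ± 0.603 (SD, n = 3), and the log2 difference was 0.16 (SE 0.13, 95% interval −0.16 to 0.48, exact permutation p = 0.2). Without rhTM replicate 1 the Il1rn difference was 0.0775 and without saline replicate 1 it was 0.0985. By the table the difference was −0.0160, and 0.23 when the slide, which the table leaves unbalanced between the groups, was added as a block.

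Il1r2, the decoy receptor carried in large part by neutrophils, had signals of 48.7, 41.0 and 59.3 in saline and 78.1, 46.0 and 53.6 in rhTM lungs. A single rhTM lung, replicate 1, exceeded all saline lungs and the other two lay among them. The means were 59.2 ± 16.7 and 49.6 ± 9.19 (SD, n = 3), a log2 difference of 0.23 (SE 0.23, 95% interval −0.32 to 0.79, exact permutation p = 0.5). The table gave 0.29 (limma adjusted p = 0.562). With single arrays left out, the Il1r2 difference lay between 0.02 (without rhTM replicate 1) and 0.40 (without rhTM replicate 2). The neutrophil markers, such as S100a8, S100a9 and Retnlg, also had their highest summed signal on rhTM replicate 1, at 1217, against 954 to 1079 on the other rhTM arrays and 927 to 1091 in saline. By the table each rhTM sum (1217, 1091 and 1079) was above each saline sum (954, 927 and 1038). Of these markers 9 of 10 were tested (Ly6g had no matched probe), 7 were higher with rhTM, and their part in the Il1r2 values was not tested. In whole lung RNA, fewer cells of a type and less RNA in each cell cannot be told apart.

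Among the receptor chains of IL-1, Il1r1 had the largest difference of the 10 genes by the scanner output. This signalling receptor, carried by endothelial, epithelial and stromal cells, measured 1.46, 1.97 and 1.38 in saline and 2.76, 2.01 and 1.66 in rhTM lungs. Replicates 1 and 2 of rhTM lay above the highest saline lung, the latter by little, and replicate 3 lay between the saline values. The means were 2.14 ± 0.563 and 1.6 ± 0.319 (SD, n = 3), a fold of 1.33 (95% interval 0.908 to 1.94) or 0.41 on the log2 scale (SE 0.23). This did not pass the limma test (p = 0.121, adjusted p = 0.9999) or the exact permutation test (p = 0.2). The difference was 0.52 within slide 1 and 0.19 within slide 2, and by the table it was 0.10 (adjusted p = 0.883). It stayed above 0 under all 13 alternatives that could move it, between 0.10 and 0.65. This was not particular to Il1r1: Il1r2 stayed above 0 under 14 of 14, and Il1rn and Il1rap under 13 of 14. The alternatives reuse the same arrays.

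Il1rap, the accessory chain shared by the IL-1 and IL-33 receptors, was the one gene of the 10 whose groups did not overlap. It measured 1.57, 1.79 and 1.73 in saline and 1.88, 1.87 and 1.84 in rhTM lungs. The rhTM lungs lay close together, each above all saline lungs. The step was small, with a fold of 1.10 (log2 difference 0.14, SE 0.11, 95% interval −0.13 to 0.40, limma adjusted p = 0.9999), and the exact permutation p of 0.10 is the smallest that the design allows. Groups failed to overlap for 1 of 10 family genes and for 5.52% of all genes, with rhTM above in 2.95% and below in 2.57%. By the table the Il1rap groups overlapped and the difference was −0.03, since the array that was lowest of all then counted as rhTM. With the slide as a block the table gave 0.0619 for Il1rap, and without saline replicate 1 the scanner difference was 0.0829.

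In the IL-18 branch, neither the cytokine nor its inhibitor separated the groups by the scanner output. Il18, which drives interferon-γ in NK and T cells, measured 3.31, 3.69 and 3.95 in saline and 4.84, 4.61 and 3.08 in rhTM lungs. The rhTM lungs were spread on both sides of the saline lungs, with 2 above and 1 below all of them. The log2 difference was 0.17 (SE 0.20, 95% interval −0.30 to 0.64, exact permutation p = 0.5), −0.15 by the table (limma adjusted p = 0.738) and 0.25 when the table was fitted with a slide block (adjusted p = 0.330). Both arrays of slide 2 were below all arrays of slide 1 for Il18, on average by 0.41 log2 units (slide 2 minus slide 1, −0.41). The rhTM minus saline difference was 0.31 on slide 1 and −0.10 on slide 2, and with the slide as a block limma gave an adjusted p of 0.920 by the scanner output. By the table both slide 2 arrays were rhTM lungs. The scanner difference of Il18 was 0.0508 without rhTM replicate 1, 0.0862 without rhTM replicate 2, 0.10 without saline replicate 1 and 0.38 without rhTM replicate 3.

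Il18bp, the secreted binding protein that neutralises IL-18, measured 3.54, 3.39 and 3.28 in saline and 3.62, 2.96 and 4.22 in rhTM lungs. Here the saline lungs lay close together and the rhTM lungs ranged around them. The log2 difference was 0.07 (SE 0.16, 95% interval −0.30 to 0.44, exact permutation p = 0.7). Without rhTM replicate 3 the Il18bp difference was −0.0559 and without rhTM replicate 2 it was 0.20. By the table all rhTM lungs exceeded all saline lungs, with a difference of 0.24 (SE 0.12, limma adjusted p = 0.399, exact permutation p = 0.10, the smallest possible).

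In the IL-33 branch, the ligand overlapped between groups by the scanner output and did not by the table. Il33 measured 3.09, 2.63 and 1.83 in saline and 3.37, 1.92 and 2.83 in rhTM lungs. By the scanner output the groups interleave, with means of 2.71 ± 0.730 and 2.52 ± 0.637 (SD, n = 3) and a log2 difference of 0.10 (SE 0.27, 95% interval −0.55 to 0.75, exact permutation p = 0.7). By the table the saline lungs were 1.92, 2.63 and 1.83 and the rhTM lungs 3.37, 3.09 and 2.83, so every rhTM lung was above every saline lung. The means were then 3.1 ± 0.269 and 2.13 ± 0.436 (SD, n = 3), a fold of 1.47 (95% interval 1.12 to 1.93) or 0.56 on the log2 scale. The unadjusted limma p was 0.0130 and the adjusted p 0.314, with an exact permutation p of 0.10. The rhTM values 3.09 and 2.83 were the 2 arrays of slide 2, where Il33 was on average 0.32 log2 units above slide 1. With the slide as a block the table gave 0.68 for Il33.

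Under the same assignment, 14% of all genes (2279) had an unadjusted p under 0.05, and the count among the 10 family genes was 1 (Il33). Groups did not overlap for 21.7% of all genes, with rhTM above in 9.68% and below in 12%, and for 2 of the 10, Il33 and Il18bp, both above. With both exchanged arrays left out, the Il33 difference was 0.49 (limma adjusted p = 0.676), and with single arrays left out it lay between −0.11 (without saline replicate 3) and 0.33 (without rhTM replicate 2). Alveolar type 2 cells are a main source of IL-33 in the mouse lung. Their markers (10 of 10 tested, Sftpc, Sftpb and Lamp3 among them) had summed signals of 1420 to 1936 in saline and 1393 to 1800 in rhTM lungs by the scanner output, with 1 of 10 higher with rhTM. By the table their sums were 1420 to 1523 in saline and 1393, 1936 and 1800 in rhTM lungs, with 6 of 10 higher, and the part of these markers in the Il33 values was not tested.

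Il1rl1, which encodes the IL-33 receptor ST2, measured 0.718, 0.853 and 0.589 in saline and 0.726, 0.692 and 0.722 in rhTM lungs. The rhTM lungs were alike and lay inside the wider saline range. The log2 difference was 0.0038 (SE 0.16, 95% interval −0.37 to 0.38, exact permutation p = 0.9), and 0.04 by the table.

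**Figure D2:**
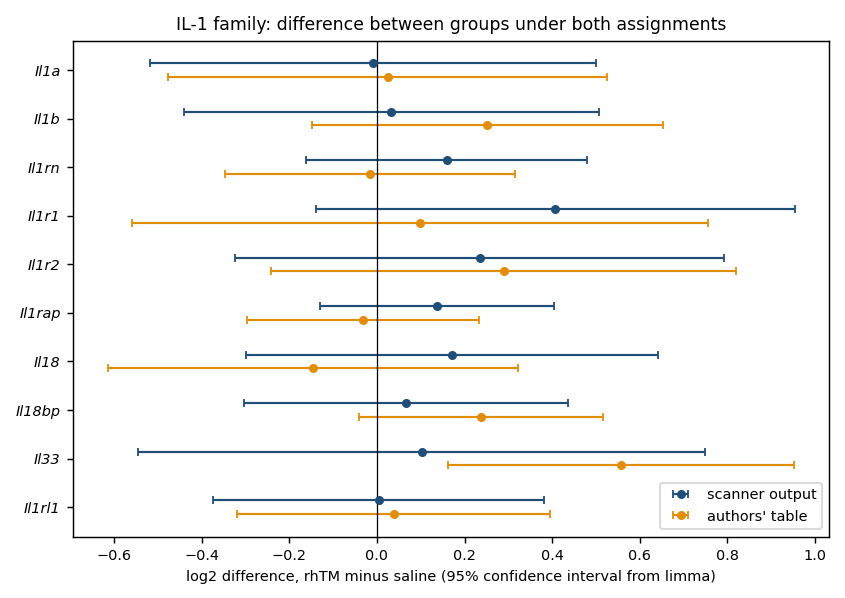
Log2 difference, rhTM minus saline, of each gene with its 95% confidence interval from limma, by the scanner output (blue) and by the authors' table (orange), in which 2 arrays are exchanged. All intervals include 0 but that of Il33 by the table, 0.16 to 0.95, and Il1a, Il1rn, Il1rap and Il18 have opposite signs under the 2 assignments.

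Within the rhTM group, replicate 1 was often the extreme array, over all genes and in this family. It was the highest of the 6 arrays for Il1rn, Il1r1, Il1r2, Il1rap, Il18 and Il33, that is for 6 of 10 genes, whereas it was the highest for 29.8% of all genes. It was the lowest for 0 of the 10 genes and for 26.6% of all genes. Saline replicate 3 was the lowest for Il1a, Il1r1, Il33 and Il1rl1 (4 of 10, against 10.1% of all genes). Leaving out rhTM replicate 1 turned the sign of Il33 to −0.07, of Il1b to −0.02, of Il1rl1 to −0.0091 and of Il1a to 0.04, and lowered Il1r1 from 0.41 to 0.21. The count of genes with a higher log2 mean was then 7 of 10 and the median difference 0.0464, against 0.10 to 0.15 without each of the other arrays in turn. Without saline replicate 3 it was 6 of 10, with Il33 at −0.11, and without saline replicate 1 it was 10 of 10.

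The balance of each ligand or receptor with its own inhibitor or partner was compared within each array, where the array scaling cancels. Il1rn minus Il1b, the antagonist against the agonist, was −1.63, −0.81 and −0.88 log2 units in saline and −0.93, −1.04 and −0.97 in rhTM lungs. The rhTM lungs were close to each other, and saline replicate 1 was the lowest of all. The groups differed by 0.13 (exact permutation p = 1). The decoy against the signalling receptor, Il1r2 minus Il1r1, differed by −0.17 (exact permutation p = 0.7). Il18bp minus Il18 differed by −0.10 (exact permutation p = 0.8) and Il1rl1 minus Il33 by −0.10 (exact permutation p = 0.9). After Benjamini-Hochberg adjustment over the 4 pairs each p was 1. By the table, the balance of Il1rl1 with Il33 was −1.48, −1.62 and −1.64 in saline and −2.21, −2.10 and −1.97 in rhTM lungs. Each rhTM lung was then below each saline lung, with a difference of −0.52 (exact permutation p = 0.10, adjusted 0.4). The other pairs differed by −0.27 (Il1rn minus Il1b), 0.19 (Il1r2 minus Il1r1) and 0.38 (Il18bp minus Il18), each with overlap.

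**Figure D3:**
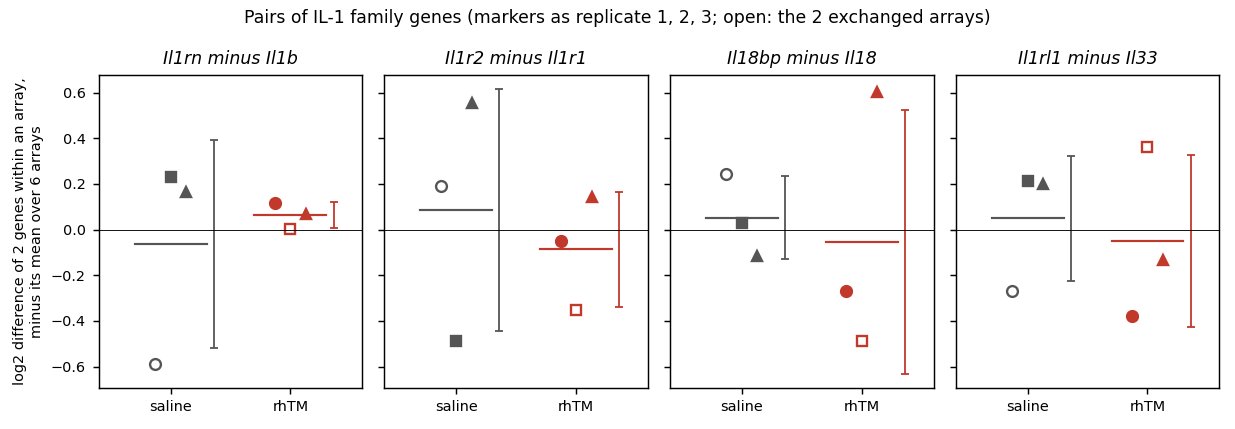
Log2 difference between the 2 genes of a pair on the same array, centred on its mean over the 6 arrays, in saline (grey) and rhTM (red) lungs. Circles, squares and triangles are replicates 1, 2 and 3, open symbols are the 2 exchanged arrays, and lines with bars are the mean and SD of 3 arrays. The groups overlap for all 4 pairs.

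Several genes had more than 1 probe, and among the probes well above background on all arrays the size or the sign could differ. The second Il1r2 probe differed by 0.15 against 0.23 for the brightest, the second Il1rn probe by 0.08 against 0.16, and the second Il33 probe by 0.15 against 0.10. In each of these the sign was that of the brightest probe. The second Il1b probe differed by −0.09 against 0.03 and the second Il18bp probe by −0.03 against 0.07, so the sign of these near-zero differences depended on the probe. For Il1rap, the probe to NM_134103 differed by 0.09 with overlap of the groups, so the lack of overlap held for the probe to NM_008364. The Il1rap probe to NM_001159318 was well above background on 1 saline array and 0 rhTM arrays. For Il1rl1, the probe to NM_010743 was above background on 3 saline and 2 rhTM arrays and differed by −0.24 (exact permutation p = 0.7). A further Il1rl1 probe was above background on 0 arrays.

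**Figure D4:**
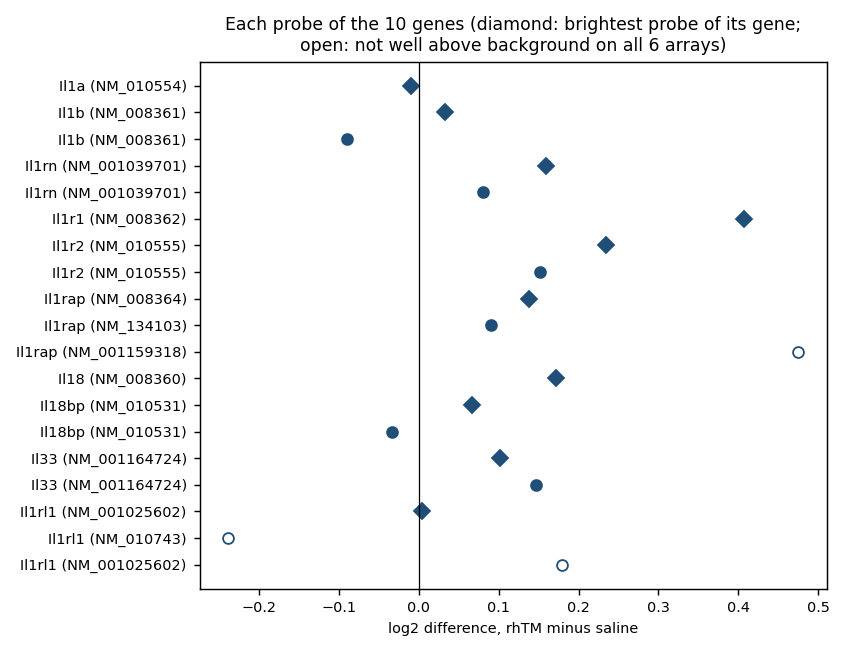
Log2 difference, rhTM minus saline, of each of the 19 probes, named by gene and the RefSeq transcript it was designed to. Diamonds are the brightest probe of a gene and open circles are probes that were not well above background on all 6 arrays. Differences of the probes well above background on all arrays lie between −0.09 (second Il1b probe) and 0.41 (Il1r1).

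The genes around the 10 were described from lists of the pathway. Of 11 other receptors and ligands of the family, 4 were tested, 2 were higher and 0 passed the adjusted p, with a median difference of −0.03. By the table all 4 were lower with rhTM and the median was −0.18, and it was −0.16 without both exchanged arrays. With a slide block added to the table the median was −0.0521, Il18rap was 0.47 (limma adjusted p = 0.0950) and Sigirr −0.18. Il18r1 and Il18rap, the chains of the IL-18 receptor, differed by 0.0063 and 0.06. Sigirr, an inhibitory receptor of the family, measured 1.70, 2.52 and 2.24 in saline and 2.07, 2.27 and 1.72 in rhTM lungs. Its groups overlapped, with a difference of −0.09, whereas by the table all rhTM lungs were below all saline lungs for Sigirr (−0.36, limma adjusted p = 0.319). Il1f9, an IL-36 ligand, differed by −0.06. Leaving out single arrays moved the median between −0.0985 (without saline replicate 1) and 0.0966 (without rhTM replicate 3). The other seven were not tested, among them Il1rl2, the IL-36 receptor, which was above background on 1 array.

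Of 18 genes of cytokine release and processing, which include caspases, inflammasome sensors and neutrophil proteases, 18 were tested, 7 were higher with rhTM and 0 passed, with a median of −0.08. By the other assignment 9 of 18 were higher, the median was −0.0420, and rhTM lay wholly above for 1 and wholly below for 4, where 9.68% and 12% of all genes did. With single arrays left out the scanner median lay between −0.0971 (without saline replicate 1) and −0.0124 (without saline replicate 2). Casp4 (caspase-11), the sensor of intracellular LPS, measured 14.6, 14.1 and 14.5 in saline and 19.6, 15.6 and 14.8 in rhTM lungs. Every rhTM lung was above every saline lung, although replicate 3 by little, and the difference was 0.20 (limma adjusted p = 0.9999). By the table the Casp4 groups overlapped, with 0.14, and without rhTM replicate 1 the scanner difference was 0.0777. Mcpt4, a mast cell chymase, differed by 0.39 and Nlrp1b, an inflammasome sensor, by −0.25, both with overlapping groups. By the table these were 0.48 and −0.43 without overlap (limma adjusted p = 0.316 and 0.314). The scanner difference of Mcpt4 was 0.23 without saline replicate 3, and that of Nlrp1b −0.13 without rhTM replicate 1 and −0.42 without rhTM replicate 2. Both probes were dim, and with normexp background correction the scanner differences were 0.25 for Mcpt4 and −0.0290 for Nlrp1b. Elane, a neutrophil protease named after its values were seen, had the largest table difference of the list, 2.54 with overlap (limma adjusted p = 0.337), against −0.0470 by the scanner output.

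Of 25 genes of receptor signalling, 25 were tested, 15 were higher and 0 passed, with a median of 0.01 (0.0987 without rhTM replicate 3). By the other assignment 11 were higher, with a median of −0.0214. Tab3, an adaptor of the kinase TAK1, was the only one of the 73 tested genes of the 5 pathway lists with an unadjusted p under 0.05 by the scanner output (1.37%, against 1.87% of all genes). By the other assignment 13 of 73 had one (17.8%, against 14% of all genes). It measured 0.733, 0.698 and 0.812 in saline and 0.982, 0.877 and 0.914 in rhTM lungs, with each rhTM lung above each saline lung. The Tab3 difference was 0.31 (SE 0.12, unadjusted p = 0.0384 in limma, adjusted p = 0.9999, exact permutation p = 0.10). By the table it was 0.13 with overlap. Peli2, a ubiquitin ligase acting on IRAK kinases, differed by 0.30 and Map3k3, a kinase upstream of NF-κB, by −0.29. By the table these were −0.36 for Peli2 and −0.0114 for Map3k3, and without rhTM replicate 2 the scanner difference of Peli2 was 0.0359.

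Of 18 genes induced by IL-1 or IL-18, all were tested, 12 were higher with rhTM and 0 passed, with a median of 0.08 and 0.32 by the table. The scanner median was 0.0397 without rhTM replicate 1, 0.23 without rhTM replicate 2 and 0.0014 without rhTM replicate 3. By the table rhTM lay wholly above saline for 5 of 18 genes, against 9.68% of all genes. These 5, named after their values were seen, were Csf3, the cytokine Il6 (1.21), the chemokine Ccl20 (0.89) and the acute-phase genes Saa3 (0.36) and Lcn2 (0.30), with limma adjusted p from 0.314 to 0.322. By the scanner output their groups overlapped, with 0.45 for Il6, 0.0784 for Ccl20, 0.0897 for Saa3 and 0.14 for Lcn2. Cxcl2, a neutrophil chemokine, measured 0.706, 0.609 and 0.684 in saline and 2.29, 0.725 and 0.953 in rhTM lungs. The groups did not overlap, but replicate 1 was far above the other two rhTM lungs, and the difference was 0.81 (SE 0.40, limma adjusted p = 0.9999). Mmp3, a matrix protease of stromal cells, likewise did not overlap, with 6.29, 6.95 and 6.86 against 12.2, 7.22 and 9.12 and a difference of 0.48 (SE 0.20, adjusted p = 0.9999). Csf3, the granulocyte growth factor G-CSF, differed by 0.77 with overlap, and by 1.05 without overlap by the table (limma adjusted p = 0.321). By the table Cxcl2 (0.78) and Mmp3 (0.34) overlapped. With a slide block added to the table, which leaves rhTM replicate 1 as the only rhTM array beside saline arrays, Cxcl2 (1.77, limma adjusted p = 0.0338) and Csf3 (1.84, adjusted p = 0.0439) passed, as did 432 of all genes. In all 3 genes rhTM replicate 1 was the highest array. Without it the scanner differences were 0.32 for Cxcl2, 0.30 for Csf3 and 0.28 for Mmp3. Without rhTM replicate 2 the scanner difference of Csf3 was 1.29.

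Of 12 genes of type 2 cells and targets of IL-33, 8 were tested, 4 were higher and 0 passed, with a median of −0.02 that ranged from −0.0872 (without saline replicate 1) to 0.0970 (without rhTM replicate 3). Il5, Il4 and Il9 were above background on 0 arrays and Il13 on 1. Gata3, a transcription factor of type 2 lymphocytes, measured 1.03, 1.00 and 1.01 in saline and 0.787, 0.963 and 0.804 in rhTM lungs. The rhTM lungs were all below the saline lungs (−0.26, SE 0.13, limma adjusted p = 0.9999), and overlapped with them by the table (−0.19). Areg, an epidermal growth factor receptor ligand made by tissue-repair lymphocytes among others, differed by 1.07 with overlap. Its probe was dim, and the Areg difference was 0.48 without rhTM replicate 1, 1.70 without rhTM replicate 2 and 0.54 with normexp. Retnla, a macrophage and epithelial product, spread widely, with 68.9, 29.2 and 65.0 in saline and 201, 21.0 and 168 in rhTM lungs. It differed by 0.81 by the scanner output and by 1.96 without overlap by the table (limma adjusted p = 0.314). The scanner difference of Retnla was 0.23 without rhTM replicate 1, 0.36 without rhTM replicate 3, 0.41 without saline replicate 2 and 1.86 without rhTM replicate 2.

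**Figure D5:**
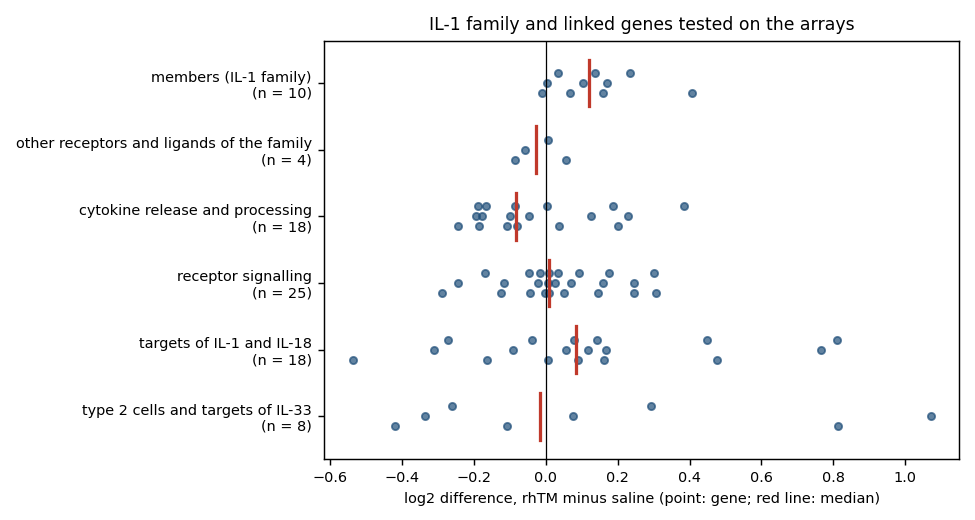
Log2 difference, rhTM minus saline, by the scanner output for the 10 family genes and the tested genes of 5 pathway lists, with 1 point for each gene and a red line at the median. Medians lie between −0.08 and 0.12, and no gene passed the adjusted p of 0.05.

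Other cells that carry these genes were read from marker lists. Monocyte and macrophage markers, 12 of 12 tested, summed to 710 to 726 in saline and 665 to 736 in rhTM lungs. By the scanner output 9 of these markers were lower with rhTM and 3 higher, with a median of −0.109. Every rhTM lung was below every saline lung for 2, Ly6c2 and Ccr2, which were named after their values were seen. By the other assignment 11 were lower and 1 higher, each with overlap, with a median of −0.0966. In limma 0 of the 12 had an unadjusted p under 0.05 by either assignment. Endothelial markers (10 of 10) summed to 252.3, 246.4 and 248.9 in saline and 230.0, 243.1 and 245.9 in rhTM lungs, so that each rhTM sum was below each saline sum. A sum gives most weight to bright probes, such as that of Ramp2, which was named after its values were seen. Ramp2 was at 99.8 ± 8.67 in saline and 74.3 ± 22.5 in rhTM lungs (SD, n = 3), a log2 difference of −0.47. Calcrl differed by −0.61, while 5 of the 10 markers had higher means with rhTM. By the table the endothelial sums overlapped, and 7 of 10 markers were lower with a median of −0.34. An unadjusted p under 0.05 in limma was found for 4 (14% of all genes). These 4 were named after their values were seen. Ptprb was higher (0.56), and Pecam1, Tek and Emcn were lower (−0.63, −0.67 and −0.37). Fibroblast markers (8 of 8) ranged from 120 to 147 and from 124 to 183, and the highest was rhTM replicate 3. NK and T cell markers (9 of 10, without Trac) ranged from 33.2 to 56.9 and from 26.7 to 58.5. Of mast cell and basophil markers 5 of 8 were tested, and their sum was 17.6 to 19.9 in saline and 17.0 to 30.7 in rhTM lungs, highest on replicate 1. Most of that sum was Hdc (13.2 ± 0.787 in saline, 16.5 ± 6.59 in rhTM lungs) and Kit (5.34 ± 0.497 and 6.36 ± 0.304; SD, n = 3), which other cells also carry. The dimmer and more specific markers differed by −0.12 (Cpa3), 0.14 (Tpsb2) and 0.11 (Fcer1a), each with overlap. By the table all 5 were higher with rhTM, with 0.37 for Cpa3, 0.43 for Tpsb2 (every rhTM lung above) and 0.50 for Fcer1a. The basophil protease Mcpt8 was above background on 2 arrays and the IgE receptor chain Ms4a2 on 0. The part of these markers in the values of the family was not tested.

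The genes whose profile over the 6 arrays was most like that of the 3 most variable family genes were found by the root mean square difference of centred log2 values. For Il1r1 they were Itga7 (0.104), Gja1 (0.107) and Celf3 (0.112), where Il1r1 itself varied with an SD of 0.37. For Il33 (SD 0.36) they were 4930550C14Rik (0.0628), Rab20 (0.0935) and Mpo (0.0943). For Il1r2 (SD 0.33) they were Hopxos (0.0468), 1600020E01Rik (0.0542) and 1600029O15Rik (0.0558). These are descriptions over 6 arrays chosen from all genes tested.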

How the data were processed

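The authors deposited the scanner output of 6 arrays (Feature Extraction 10.7.3.1 per the file headers, 9.1 per the labels), whose processed signal is an intensity corrected for background within the array. The authors' deposited table holds the same intensity values as means per probe and unscaled, but with saline replicate 1 and rhTM replicate 2 swapped (99.9% of probes equal crosswise, to within 0.1%). Its direction and scale follow from that match.

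From these, control spots were left out, the spots of a probe were averaged, and 398 probes were dropped because an array had flagged all their spots as outliers. Signals were taken as log2 and the 75th percentile of the array was subtracted. Probes were named through their accession from a RefSeq table of GRCm38.p6 (32803 of 56605 probes). The design was annotated on another build, so probes have no coordinates here. Probes not well above background on every array (3 of 3) of either group were left out. The comparison used limma 3.58.1 under R 4.3.3 (lmFit, then eBayes, all 6 arrays, no covariate) with Benjamini-Hochberg adjustment over 16370 genes (16320 in the table), and single values by an exact two-sided permutation test. The methods' fold and p thresholds were not used.

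The 10 genes, the 13 lists and the tests were chosen with earlier results of these data known. The rule takes the 10 genes by name only and uses signals to pick the probe of each. Named are all 10 genes, in each pathway list the 2 tested genes with the largest difference and the 2 with the smallest unadjusted p, always Il18r1, Il18rap, Il1rl2 and Sigirr, and the 3 most similar profiles of the 3 most variable members. Other genes are examples of a list or, where the text says so, were named after their values were seen. In arrays simulated with 200 of 16370 genes changed, 70% of changes of 1 log2 unit were found by limma, 96% of those of 2, and 8 unchanged genes were called. The simulated noise was independent for each gene and array, without shifts of a whole slide or array. These shares therefore do not give the power in the real arrays. Changes below 1 log2 unit, such as those of the family, were not simulated. Precision is limited by the 3 arrays per group. Alternatives were other scaling, normexp with an offset of 50 (on median spot signals, since the files hold no mean), the table, filters, probe means, slide and replicate blocks, arrays left out and the methods' t-test. Slide 1 alone was added after the data were seen.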

Additional observations from a re-analysis of the deposited data

How the results depend on the processing

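In limma, 0 genes passed the adjusted p of 0.05 under every scanner-based alternative, with 195 to 1379 genes at an unadjusted p under 0.05 (306 in the values reported). The methods' t-test gave 0 after adjustment and 340 before. The authors' table gave 0 and 2279, and with the slide as a block, which leaves only rhTM replicate 1 beside saline arrays on its slide, 432 and 4578. None of the 10 family genes passed under any of these settings. With the table and the slide block the lowest adjusted p of a family gene was 0.120 (Il1r2, 0.70). Without rhTM replicate 2, 1379 genes had an unadjusted p under 0.05 and 0 passed. The cause of these moves was not tested.

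The replicate numbers were also fitted as a block. With the replicate block 0 genes passed and 377 had an unadjusted p under 0.05, and no call changed. Deviations of same-numbered arrays correlated at −0.30, 0.44 and −0.45, so the numbers name the mice and were not used as pairs.

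The median of the 10 genes was 0.24 by the table with the slide block. The median of the release and processing genes was 0.10 there, that of IL-1 and IL-18 targets 0.32 by the table, 0.28 with the slide block added and 0.33 without both exchanged arrays. That of type 2 genes was 0.26 by the table with the slide block and 0.18 without a filter. Leaving out 1 array at a time gave −0.0016 to 0.10 for the signalling genes. Family genes without overlap numbered 0 of 10 with normexp (5.58% of all genes), 0 with the mean of a gene's probes (6.04%), 2 by the table with or without the slide block (21.7%), 3 without both exchanged arrays (41.2%) and 5 on slide 1 only (26.5%), where 2 arrays face 2. With 1 array left out they numbered 1 to 4: 4 without rhTM replicate 3 (15.5% of all genes), 3 without saline replicate 3 (15.6%), 2 without saline replicate 2 (8.85%) and 2 without rhTM replicate 2 (24.4%). Of the 10 genes, 6 to 10 had a higher log2 mean with rhTM under all these alternatives.

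Of 180 values of single family genes under alternatives, 26 turned in sign and the rest kept it, all on the same side of the threshold. By the scanner output the filters, the blocks and, for genes of 1 probe, the probe means gave these genes the values reported, and so add no check. By the table, Il18 was −0.15, Il1a 0.0241, Il1rap −0.0316 and Il1rn −0.0160. Il18r1 was −0.23 there, Il18rap −0.0567 and Peli2 −0.36. By the table with the slide block, Il18r1 was −0.0429, Map3k3 0.0269 and Peli2 −0.21. Without both exchanged arrays Il1a was 0.0110, Il18r1 −0.17, Il18rap −0.00048 and Peli2 −0.0472. With quantile normalization Il1b was −0.0093, Il1rl1 −0.00054 and Il18r1 −0.0346. With the percentile of detected probes Il1rl1 was −0.0199 and Il18r1 −0.0174, and with normexp −0.0076 and −0.0268. With the mean of a gene's probes Il1b was −0.0288, Il1rl1 −0.12 and Il18r1 −0.0931. On slide 1 only, Il1a was 0.11 and Il18bp −0.0274. With 1 array left out, single genes ranged from −0.24 to 0.13 (Il1a), −0.11 to 0.23 (Il1b), −0.0559 to 0.20 (Il18bp), −0.11 to 0.33 (Il33), −0.13 to 0.13 (Il1rl1), −0.12 to 0.17 (Il18r1), −0.18 to 0.27 (Il18rap), −0.16 to 0.0588 (Il1f9) and −0.25 to 0.0372 (Sigirr). Both Cxcl2 (1.77, adjusted p = 0.0338) and Csf3 (1.84, adjusted p = 0.0439) passed in the table with the slide block.

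Of the pairs, Il1rn minus Il1b was −0.27 by the table, −0.0180 with the slide block added, −0.11 without both exchanged arrays and −0.14 on slide 1. Il1r2 minus Il1r1 was 0.19 by the table, 0.0463 with the slide block added and 0.0136 without both exchanged arrays. Il18bp minus Il18 was 0.38 by the table and 0.21 without the exchanged arrays. With 1 array left out the pairs ranged from −0.14 to 0.27 (Il1rn minus Il1b), −0.46 to 0.0628 (Il1r2 minus Il1r1), −0.43 to 0.11 (Il18bp minus Il18) and −0.30 to 0.0653 (Il1rl1 minus Il33).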
